A study of Homo sapiens with 9 samples.

Results

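NF-kB is a family of dimeric transcription factors that switches on inflammatory, survival and antiviral genes. The genes described here are its 5 subunits (NFKB1, NFKB2, RELA, RELB and REL) and 5 regulators that its dimers induce or that bind them (NFKBIA, NFKBIE, TNFAIP3, BIRC3 and BCL3). They were taken by symbol from a table of 67140 genes, and all 10 were found there, each under a single gene identifier. They were measured in DMS273, an established human small cell lung cancer cell line, by RNA sequencing after rRNA depletion, with 3 libraries in each of 3 groups. Control cells received a scrambled guide and are labelled wild type, ATG7 KO cells received a CRISPRv2 guide against ATG7, and ATG7/SQSTM1 KO cells received guides against both genes, so the ATG7 knockout is common to both edited groups. ATG7 is needed to make autophagosomes, and SQSTM1 encodes p62, an autophagy receptor that is also known as a scaffold in NF-kB signalling. Whether the edited cells are clones or pools is not in the labels, nor is the origin of replicate libraries in separate cultures. The p-values therefore describe the spread among the sequenced libraries, which may be technical.

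In resting cells NF-kB dimers are held in the cytoplasm by inhibitors of the IkB family. In the canonical pathway the IKK kinase complex marks IkB for destruction and frees dimers such as RELA with p50, the product of NFKB1. In the non-canonical pathway the kinase encoded by MAP3K14 leads to processing of the NFKB2 product to p52, the usual partner of RELB. Many of the dimers' own inhibitors and subunits are textbook targets of the pathway, so their transcripts are often read as its feedback arm.

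Promoter sequences show how far these genes carry sites of the kind NF-kB binds. RefSeq promoters (GRCh38.p14, 250 bases before to 50 after a start site) were at hand for 8 of the 10 genes, in 12 entries. RELB and NFKBIE had no entry. The NF-kB consensus of textbooks, searched by its degenerate letters on both strands, matched in 8 of the 12 entries, which belong to 7 genes, and in 3956 of 35116 promoters of that length in all (11.27%). A second motif, 2 GAAA blocks with any 2 bases between them, which is typical of sites bound by interferon regulatory factors, matched in 1 of the 12 entries, that of RELA, and in 3.57% of all promoters. RELA had no NF-kB match in either entry. A match is a description of the letters and not evidence of binding. The stretches below show matches in 6 genes, read in the direction of the gene with the matching bases in capitals. For NFKB2 they show 2 of its 5 matches. No stretch holds more than 30 bases of an exon of GENCODE release 29. Those of NFKB2 and TNFAIP3 lie wholly in such exons (30 of 30 bases), and that of REL lies mostly in them (26 of 30).
NFKB1, chr4:102501290-102501339, plus strand: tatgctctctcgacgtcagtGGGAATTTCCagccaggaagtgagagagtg
NFKB2, chr10:102394461-102394490, plus strand: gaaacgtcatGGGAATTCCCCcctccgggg
REL, chr2:60881517-60881546, plus strand: cgtcagccgcGGGAAATTCCCctcccgcca
NFKBIA, chr14:35404801-35404850, minus strand: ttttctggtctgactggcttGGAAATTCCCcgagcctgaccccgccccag
TNFAIP3, chr6:137867188-137867217, plus strand: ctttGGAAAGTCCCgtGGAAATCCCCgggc
BIRC3, chr11:102317265-102317378, plus strand: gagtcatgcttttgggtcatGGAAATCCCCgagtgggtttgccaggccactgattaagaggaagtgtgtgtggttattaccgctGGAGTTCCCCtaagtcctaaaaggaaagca
In NFKB2 and REL the capitals run over 2 overlapping matches on opposite strands, while TNFAIP3 and BIRC3 have 2 separate matches each. The other NFKB2 matches were GGGGCTTTCC at chr10:102394500-102394509, GGGGCTTCCC at chr10:102395529-102395538 and GGGACTTTCC at chr10:102395684-102395693. The match in BCL3, GGGAAGTCCC, lay just after its start site.

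Library totals ran from 28675576 to 34222098 counts, and the 10 genes had between 191 and 3772 counts in a library, so all 10 passed the filter on low counts that left 18847 genes. Levels are TMM-scaled CPM, that is counts relative to the scaled library total, and changes are on the log2 scale with a standard error (SE) from edgeR's quasi-likelihood fit of all 9 libraries. In control, ATG7 KO and ATG7/SQSTM1 KO, ATG7 stood at 27.1 ± 0.9, 11.7 ± 1.5 and 10.6 ± 0.55 CPM (SD, n = 3). SQSTM1 stood at 376 ± 3.5, 391 ± 4.5 and 51.9 ± 3.3 CPM in the same order, so both targeted genes followed the labels. The labelled cell type was checked on 8 small cell lung cancer and neuroendocrine markers, whose summed level was 1580 to 1590, 1290 to 1320 and 2040 to 2080 CPM. Most of that sum was MYC, at 1170 ± 7.9, 1160 ± 11 and 1620 ± 32 CPM. Gene by gene, 7 of the 8 markers were lower in ATG7 KO than in control (median −1.55), 3 were higher and 3 lower in ATG7/SQSTM1 KO than in control (median 0.02), and all 8 were higher in ATG7/SQSTM1 KO than in ATG7 KO. NEUROD1, a defining factor of one subtype of this cancer, stood at 194 ± 3.9, 73.3 ± 0.93 and 237 ± 6.8 CPM. A list of 9 blood cell markers summed to 2.75 to 3.43 CPM in control, 8.95 to 9.01 CPM in ATG7 KO and 2.54 to 3.76 CPM in ATG7/SQSTM1 KO. Of these markers CD3E, MS4A1, LYZ and HBB had 0 counts in all libraries, which allows up to 3 counts or 0.0877 to 0.105 CPM in a library. The largest part of the blood cell sum was CD68, at 2.27 ± 0.36, 5.73 ± 0.54 and 1.58 ± 0.38 CPM. PTPRC, the pan-leukocyte marker, stood at 0.174 ± 0.11, 1.47 ± 0.067 and 0.386 ± 0.096 CPM. The 3 tested blood cell markers, PTPRC, CD14 and CD68, were all higher in ATG7 KO than in control. In ATG7/SQSTM1 KO 2 were higher than in control and 1, CD68, was lower. Fibroblast and endothelial markers (8 genes, none at 0) summed to 105 to 117, 336 to 364 and 178 to 186 CPM. Most of that sum was LUM, at 79.5 ± 6.3, 225 ± 8.6 and 109 ± 2.7 CPM. Of 7 tested genes of this list 5 were higher and 0 lower in ATG7 KO than in control. In ATG7/SQSTM1 KO 4 were higher and 1 lower than in control, and 2 were higher and 5 lower than in ATG7 KO. The part of these 3 lists in the results below was not tested. In RNA from whole cultures, more RNA per cell and more cells that carry it cannot be told apart.

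Comparing ATG7 KO with control shows how these transcripts differ between the edited and the control cells. Loss of ATG7 and any other difference between these cell populations cannot be told apart in this design. The same holds for loss of SQSTM1 and any other difference between the ATG7 KO and ATG7/SQSTM1 KO cells. Of the 10 genes 8 rose, 1 fell (RELA) and 1 was not called (REL), with a median log2 change of 0.44. Among all tested genes 56.7% were called changed, 28.4% higher and 28.3% lower, and the median change was −0.02. BCL3 had the largest change, 2.05-fold, followed by the inhibitor NFKBIE at 1.83-fold, BIRC3 at 1.65-fold and RELB at 1.59-fold. In ATG7/SQSTM1 KO, 5 of the 10 differed from control, with BCL3 higher and NFKB1, RELA, NFKBIA and BIRC3 lower. There 38.6% of all tested genes were called, 19.0% higher and 19.6% lower, and the median was −0.09 over the 10 genes and −0.01 over all. Set directly against ATG7 KO, the ATG7/SQSTM1 KO cells were lower in 9 of the 10 genes and higher in 0, with a median of −0.62 (0.02 over all genes). In that comparison 60.5% of all tested genes were called, 30.5% higher and 29.9% lower, and REL was the gene without a call. The 3 comparisons share libraries and are therefore not independent of each other.

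**Figure D1:**
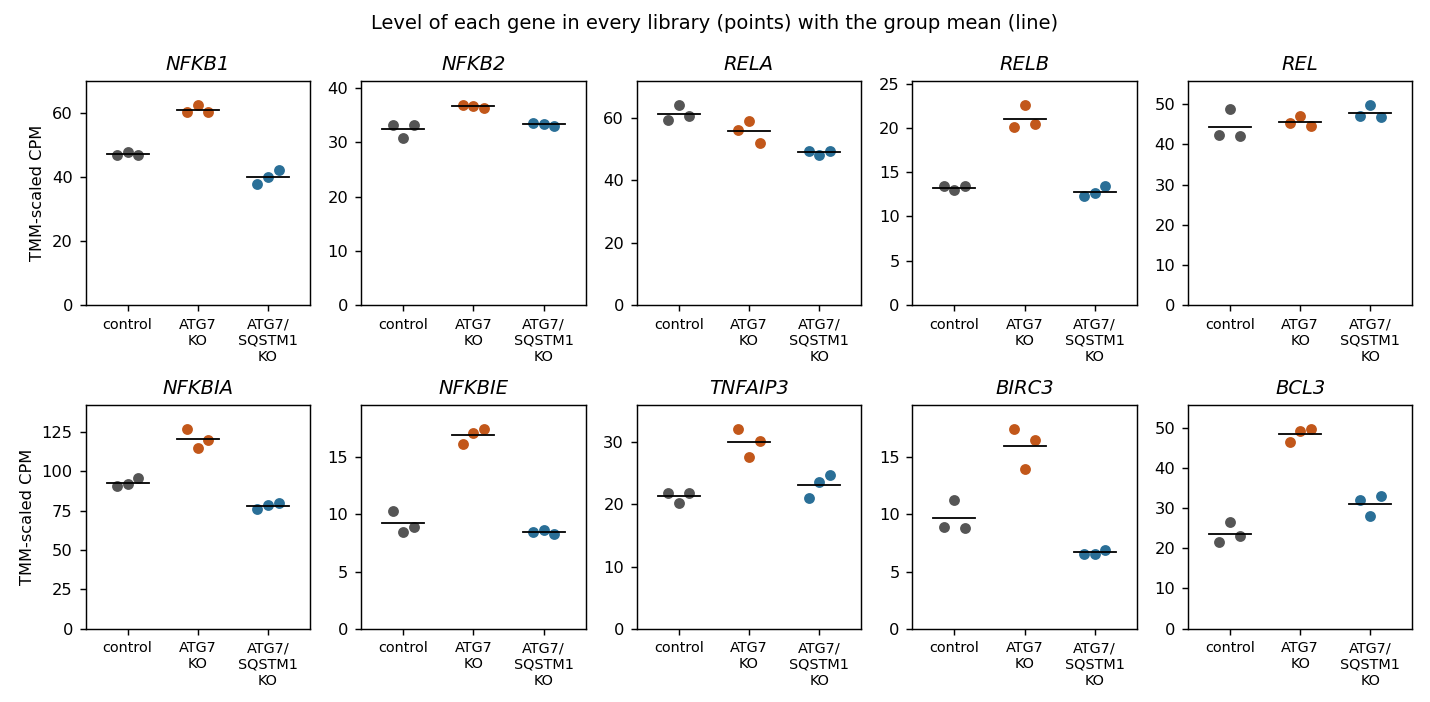
Level of each of the 10 genes (vertical axis, TMM-scaled CPM, starting at 0) in the 3 control, 3 ATG7 KO and 3 ATG7/SQSTM1 KO libraries; each point is a library and each line a group mean. In 8 panels the ATG7 KO libraries stand above all others, while RELA descends from control to ATG7/SQSTM1 KO and the REL groups overlap.

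Among the subunits, NFKB1 encodes p105, which is processed to p50 and also acts as an inhibitor while unprocessed. NFKB1 (ENSG00000109320, GRCh38 chromosome 4, 102501329 to 102617302, plus strand) stood at 47.0, 47.8 and 47.1 CPM in control, at 60.4, 62.6 and 60.3 CPM in ATG7 KO and at 38.0, 40.0 and 42.2 CPM in ATG7/SQSTM1 KO. The 3 groups did not overlap, with ATG7 KO on top and ATG7/SQSTM1 KO below control. Groups were likewise apart for 62.4% of all tested genes in ATG7 KO against control, 48.8% in ATG7/SQSTM1 KO against control and 65.9% between both knockouts. NFKB1 rose by 0.37 (SE 0.042, edgeR adjusted p = 1.33e-07) in ATG7 KO, and in ATG7/SQSTM1 KO it was lower than control by −0.24 (SE 0.043, edgeR adjusted p = 1.13e-04). Between both knockouts the difference was −0.61 (SE 0.042, edgeR adjusted p = 4.92e-11).

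RELB is the transcriptional activator of the non-canonical dimer. RELB (ENSG00000104856, chromosome 19, 45001430 to 45038198, plus strand) stood at 13.4, 13.0 and 13.4 CPM in control, at 20.1, 22.6 and 20.5 CPM in ATG7 KO and at 12.3, 12.6 and 13.4 CPM in ATG7/SQSTM1 KO. Every ATG7 KO library lay above the other 6, which overlapped. The rise of 0.67 (SE 0.069, edgeR adjusted p = 3.14e-08) was met by a difference of −0.73 (SE 0.069, edgeR adjusted p = 7.67e-09) between both knockouts. Against control, ATG7/SQSTM1 KO differed by −0.06, with a 95% interval of −0.20 to 0.09 (edgeR adjusted p = 0.582). NFKB2, which encodes RELB's partner, moved less. NFKB2 (ENSG00000077150, chromosome 10, 102394110 to 102402529, plus strand) stood at 33.3, 30.8 and 33.3 CPM in control, at 36.9, 36.8 and 36.4 CPM in ATG7 KO and at 33.6, 33.4 and 33.1 CPM in ATG7/SQSTM1 KO. It rose by 0.17 (SE 0.044, edgeR adjusted p = 0.00201) in ATG7 KO, and ATG7/SQSTM1 KO was within −0.05 to 0.13 of control (edgeR adjusted p = 0.543). The difference of −0.14 between both knockouts (edgeR adjusted p = 0.0113) lost its call when libraries were scaled by their totals alone (−0.10, edgeR adjusted p = 0.06).

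RELA, the main activating subunit of the canonical dimer, went the other way. RELA (ENSG00000173039, chromosome 11, 65653596 to 65663094, minus strand) stood at 59.5, 64.2 and 60.6 CPM in control, at 56.3, 59.0 and 51.9 CPM in ATG7 KO and at 49.4, 48.2 and 49.3 CPM in ATG7/SQSTM1 KO. The ATG7 KO libraries lay just under the lowest control library, and those of ATG7/SQSTM1 KO lay under both other groups. RELA was lower by −0.14 in ATG7 KO (SE 0.045, edgeR adjusted p = 0.0113), a call that was lost without control replicate 2 (−0.11, edgeR adjusted p = 0.0769) or without ATG7 KO replicate 3 (−0.08, edgeR adjusted p = 0.155). In ATG7/SQSTM1 KO it was lower than control by −0.33 (SE 0.045, edgeR adjusted p = 6.1e-06) and lower than ATG7 KO by −0.19 (SE 0.046, edgeR adjusted p = 0.00132). RELA was the only 1 of the 10 genes called lower than control in both knockouts.

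REL encodes c-Rel, a subunit best known from lymphocytes. REL (ENSG00000162924, chromosome 2, 60881521 to 60931610, plus strand) stood at 42.4, 48.8 and 42.1 CPM in control, at 45.4, 47.0 and 44.5 CPM in ATG7 KO and at 47.0, 49.8 and 46.8 CPM in ATG7/SQSTM1 KO. The groups overlapped, and control replicate 2 stood above the other controls. The differences were 0.04 (95% interval −0.07 to 0.15, edgeR adjusted p = 0.533) in ATG7 KO and 0.11 (0.00 to 0.22, edgeR adjusted p = 0.102) in ATG7/SQSTM1 KO against control, and 0.07 (−0.04 to 0.18, edgeR adjusted p = 0.255) between both knockouts. Without control replicate 2 the second of these was 0.18 and passed the threshold (edgeR adjusted p = 0.00548). On its strand REL overlaps the noncoding gene AC010733.2, which had 940 counts over all libraries against 12782 for REL, and reads in the shared stretch can be split between them.

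**Figure D2:**
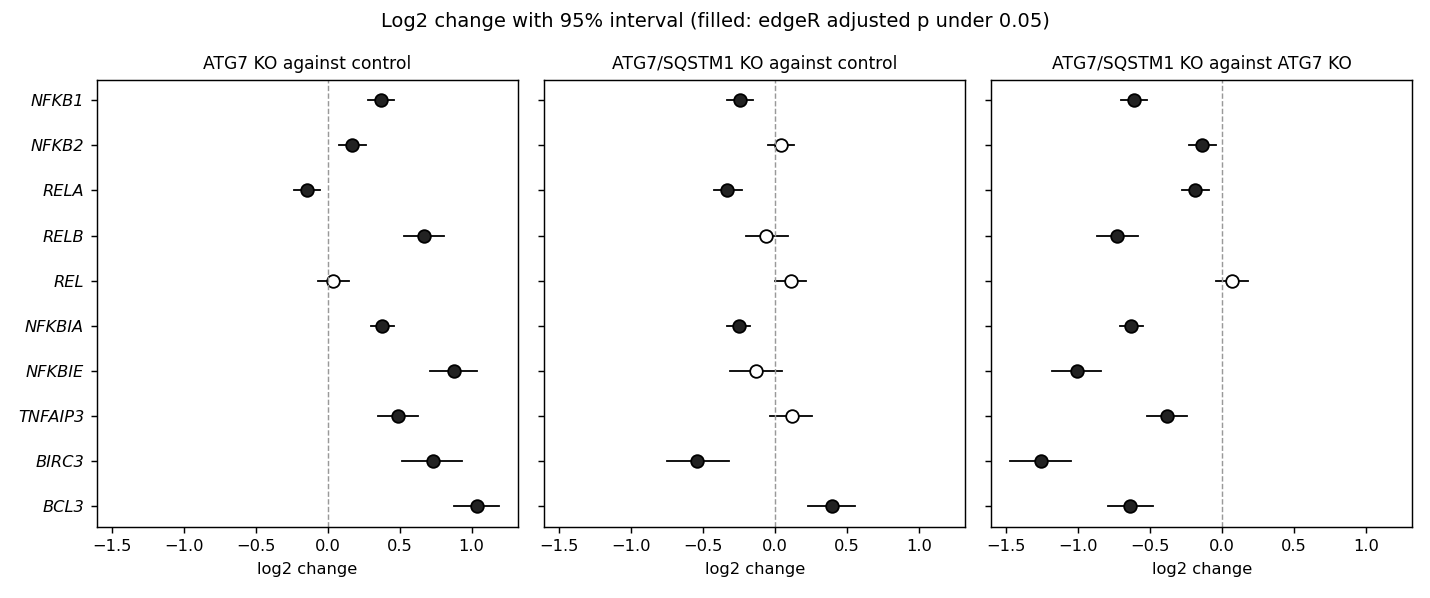
Log2 change of each of the 10 genes (horizontal axis) with its 95% interval (line) in the 3 comparisons; filled points passed an edgeR adjusted p of 0.05 and open points did not. The left panel lies mostly right of 0 and the right panel mostly left of it, and in the middle panel BCL3 (0.40) is the filled point right of 0.

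The balance of subunits can be compared once levels are divided by merged exon length, which depends on the annotation (GENCODE release 29) and is longest for REL, at 13170 bases. Per kilobase, RELA led the subunits in control with 11.2 ± 0.45 CPM, ahead of NFKB1 (7.56 ± 0.067), NFKB2 (7.24 ± 0.31), RELB (4.36 ± 0.074) and REL (3.37 ± 0.29). The control libraries of NFKB1 (7.52 to 7.64) and NFKB2 (6.88 to 7.42) lay close together without overlapping. As a share of the 5 subunits' summed level per length, RELA made up 32.5% to 34.3% of the control libraries, 25.4% to 27.0% of the ATG7 KO libraries and 28.9% to 29.9% of the ATG7/SQSTM1 KO libraries. RELB made up 12.5% to 13.2%, 17.3% to 18.6% and 13.4% to 14.1% in the same order. In ATG7 KO the RELB share was thus higher, and the RELA share lower, than in any other library. A share also depends on the other subunits. The RELA level per kilobase was lowest in ATG7/SQSTM1 KO, at 8.96 ± 0.12 CPM against 10.2 ± 0.65 CPM in ATG7 KO. The REL level may also be too low where its reads are split with AC010733.2, which overlaps it over 5702 bases. These are shares of RNA, and protein was not measured.

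**Figure D3:**
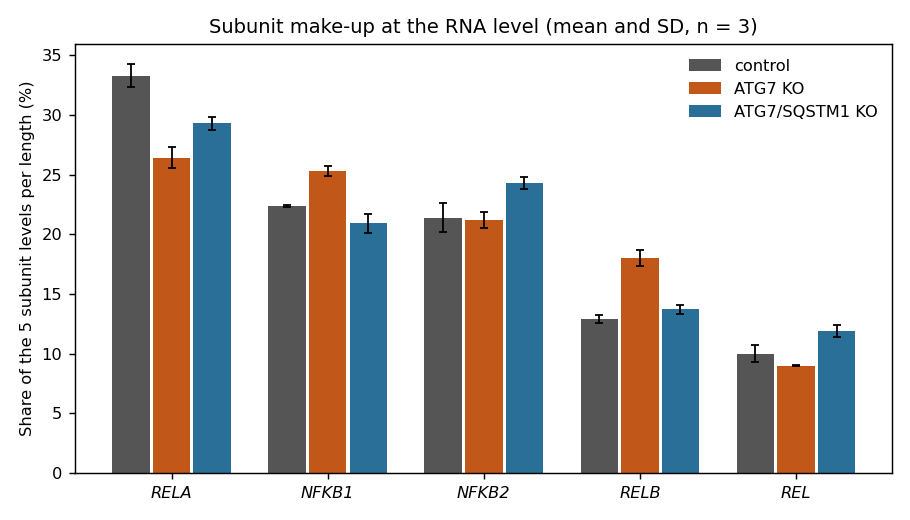
Share of each subunit (vertical axis, percent) in the summed CPM per kilobase of the 5 subunits, as mean (bar) and SD (line) of 3 libraries in each group. The RELA bar is 33.3% in control and 26.4% in ATG7 KO, and the RELB bar 12.9% and 18.0%.

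The classical inhibitors are the products of NFKBIA (IkB-alpha) and NFKBIE (IkB-epsilon), which hold canonical dimers in the cytoplasm and are made anew when those dimers reach the nucleus. NFKBIA (ENSG00000100906, chromosome 14, 35401511 to 35404749, minus strand) stood at 90.5, 91.9 and 95.7 CPM in control, at 127, 115 and 120 CPM in ATG7 KO and at 76.2, 78.6 and 79.7 CPM in ATG7/SQSTM1 KO. Its 3 groups were apart in the same order as those of NFKB1. NFKBIA rose by 0.38 (SE 0.038, edgeR adjusted p = 1.97e-08) in ATG7 KO, and in ATG7/SQSTM1 KO it was lower than control by −0.25 (SE 0.038, edgeR adjusted p = 2.63e-05). Between both knockouts it differed by −0.63 (SE 0.038, edgeR adjusted p = 6.21e-12). Per kilobase it was the most abundant of the 10 genes in all groups, at 39.1 ± 1.1, 50.9 ± 2.4 and 32.9 ± 0.77 CPM in control, ATG7 KO and ATG7/SQSTM1 KO.

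NFKBIE (ENSG00000146232, chromosome 6, 44258166 to 44265788, minus strand) stood at 10.3, 8.48 and 8.90 CPM in control, at 16.2, 17.1 and 17.5 CPM in ATG7 KO and at 8.43, 8.62 and 8.25 CPM in ATG7/SQSTM1 KO. Only the ATG7 KO libraries stood apart. NFKBIE rose by 0.88 (SE 0.082, edgeR adjusted p = 7.45e-09) in ATG7 KO and was lower by −1.01 (SE 0.082, edgeR adjusted p = 7.18e-10) in ATG7/SQSTM1 KO than in ATG7 KO. Against control the ATG7/SQSTM1 KO cells differed by −0.13 (95% interval −0.31 to 0.05, edgeR adjusted p = 0.246).

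BCL3 encodes an atypical IkB protein that enters the nucleus and works with p50 and p52 dimers on DNA. BCL3 (ENSG00000069399, chromosome 19, 44747705 to 44760044, plus strand) stood at 21.5, 26.4 and 23.0 CPM in control, at 46.3, 49.1 and 49.7 CPM in ATG7 KO and at 32.0, 28.1 and 33.0 CPM in ATG7/SQSTM1 KO. The 3 groups did not overlap, and ATG7/SQSTM1 KO lay between the other groups. BCL3 rose by 1.04 (SE 0.073, edgeR adjusted p = 2.74e-08) in ATG7 KO and by 0.40 (SE 0.075, edgeR adjusted p = 8.03e-04) in ATG7/SQSTM1 KO, and the difference between both was −0.64 (SE 0.071, edgeR adjusted p = 2.77e-06). It was the only 1 of the 10 genes called higher than control in both knockouts. Per kilobase it stood at 7.29 ± 0.77 CPM in control, level with NFKB1 and NFKB2, and at 14.9 ± 0.57 CPM in ATG7 KO, above every subunit.

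The last pair of genes acts on the ubiquitin chains that carry the signal. TNFAIP3 encodes A20, a ubiquitin-editing enzyme that shuts the pathway down, and BIRC3 encodes cIAP2, a ubiquitin ligase that promotes canonical signalling and restrains the MAP3K14 kinase. TNFAIP3 (ENSG00000118503, chromosome 6, 137867188 to 137883312, plus strand) stood at 21.9, 20.2 and 21.8 CPM in control, at 32.2, 27.6 and 30.3 CPM in ATG7 KO and at 21.1, 23.7 and 24.7 CPM in ATG7/SQSTM1 KO. The control and ATG7/SQSTM1 KO libraries overlapped. TNFAIP3 rose by 0.49 (SE 0.067, edgeR adjusted p = 1.98e-06) in ATG7 KO, differed by −0.38 (SE 0.067, edgeR adjusted p = 4.81e-05) between both knockouts, and in ATG7/SQSTM1 KO was 0.12 from control (95% interval −0.03 to 0.26, edgeR adjusted p = 0.194). The antisense gene AL357060.1 overlaps it and had 232 counts over all libraries against 6894. The strand setting of the counting is not given in the sources used here.

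BIRC3 (ENSG00000023445, chromosome 11, 102317450 to 102339403, plus strand) stood at 8.94, 11.3 and 8.84 CPM in control, at 17.5, 14.0 and 16.5 CPM in ATG7 KO and at 6.56, 6.56 and 6.91 CPM in ATG7/SQSTM1 KO. Its 3 groups did not overlap. BIRC3 rose by 0.73 (SE 0.099, edgeR adjusted p = 2.29e-06) in ATG7 KO, and in ATG7/SQSTM1 KO it was lower than control by −0.54 (SE 0.10, edgeR adjusted p = 3.28e-04). The difference between both knockouts, −1.26 (SE 0.10, edgeR adjusted p = 8.47e-10) or 2.40-fold, had the largest size among the 10 genes. Per kilobase BIRC3 was the lowest of the 10 genes in each group, at 1.29 ± 0.19, 2.13 ± 0.24 and 0.888 ± 0.027 CPM.

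The rest of the pathway was read from 6 further lists, whose counts stand beside the shares over all tested genes given above. In ATG7 KO against control these were 28.4% higher and 28.3% lower. They were 19.0% and 19.6% in ATG7/SQSTM1 KO against control, and 30.5% and 29.9% between both knockouts. All 3 other IkB genes rose in ATG7 KO and all 3 were lower in ATG7/SQSTM1 KO than in ATG7 KO. NFKBIZ, an inducible nuclear IkB, went from 9.51 ± 0.76 to 23.9 ± 2.2 CPM and stood at 12.3 ± 0.72 CPM in ATG7/SQSTM1 KO, and NFKBID went from 3.53 ± 0.43 to 5.98 ± 0.85 CPM and stood at 3.96 ± 0.51 CPM. NFKBIB, IkB-beta, stood at 33.5 ± 1.7, 41.4 ± 1.7 and 30.1 ± 0.28 CPM. Against control, ATG7/SQSTM1 KO was higher in NFKBIZ (0.37, edgeR adjusted p = 0.00139) and lower in NFKBIB (−0.15, edgeR adjusted p = 0.0155), and the second call was lost without control replicate 2 (−0.11, edgeR adjusted p = 0.107) and with DESeq2 (−0.15, adjusted p = 0.059).

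Of 7 genes of the IKK complex and the non-canonical kinase module 6 rose in ATG7 KO, 0 fell, and 6 were lower in ATG7/SQSTM1 KO than in ATG7 KO. The count of 6 that rose was 4 with library totals alone and without control replicate 3, ATG7 KO replicate 2 or ATG7 KO replicate 3. Among the 6, TRAF2 (0.20, edgeR adjusted p = 0.0232) and TRAF3 (0.11, edgeR adjusted p = 0.0499), named after their values were seen, had overlapping libraries. The exception was IKBKB, a catalytic subunit of IKK, which is named here after its values were seen (−0.01 in ATG7 KO against control and −0.06 between both knockouts). MAP3K14, the non-canonical kinase, rose by 0.66 (SE 0.057) from 23.8 ± 1.1 to 37.7 ± 2.7 CPM. The regulatory subunit IKBKG rose by 0.61 (SE 0.071), and CHUK, the catalytic subunit that phosphorylates the NFKB2 product, by 0.36 (SE 0.043). In ATG7/SQSTM1 KO against control 0 of the 7 were higher and 2 lower (TRAF3 by −0.22 and BIRC2 by −0.16, named after their values were seen), beside 38.6% called and 19.6% lower over all genes, so this count does not set the module apart. That count was 1 without control replicate 1, control replicate 2 or ATG7/SQSTM1 KO replicate 1. MAP3K14 was not called there (0.14, edgeR adjusted p = 0.0693), though its libraries lay above those of control. It passed with a filter of at least 1 CPM on average (0.14, edgeR adjusted p = 0.0473).

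Of 10 tested receptors that signal to NF-kB (12 listed) 9 rose in ATG7 KO and 1 fell, with a median of 1.15. TNFRSF1A, the main TNF receptor, went from 51.4 ± 3.3 to 112 ± 2.2 CPM, TNFRSF12A, the TWEAK receptor, from 21.9 ± 0.7 to 56.7 ± 2.4 CPM, and the interleukin-1 receptor IL1R1 from 4.87 ± 0.26 to 14.1 ± 1.3 CPM. In ATG7/SQSTM1 KO they stood at 62.7 ± 2.0, 30.1 ± 0.71 and 4.22 ± 0.48 CPM. There 8 of the 10 receptors were lower than in ATG7 KO and 2 higher, beside 29.9% and 30.5% of all genes. The 16 adaptors and kinases next to the receptors numbered 7 higher and 4 lower in ATG7 KO (median 0.10), near the 56.7% called over all genes. TRAF5, an adaptor of TNF receptors, differed by −0.85 (SE 0.063) and TAB3, an adaptor of the TAK1 kinase, by −0.50 (SE 0.042), while IRAK1, a kinase of interleukin-1 signalling, rose by 0.26 (SE 0.027). TAB3 was higher in ATG7/SQSTM1 KO than in both other groups, at 98.2 ± 3.2 CPM against 65.5 ± 2.1 in control and 46.3 ± 2.2 in ATG7 KO.

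Of 10 tested negative regulators other than those above (11 listed) 7 rose in ATG7 KO and 1 fell, beside 28.4% and 28.3% of all genes. In ATG7/SQSTM1 KO 3 were higher and 5 lower than in ATG7 KO, beside 30.5% and 29.9% of all genes. Against control 3 were higher and 1 lower there, near the 38.6% called over all genes. N4BP1 (0.91) and CYLD (0.46), named after their values were seen, were among those above control in ATG7/SQSTM1 KO. Both were also higher than in ATG7 KO (0.68 and 0.23). ZC3H12A, a ribonuclease that degrades inflammatory mRNAs, went from 25.4 ± 2.8 to 57.1 ± 1.7 CPM and was at 25.3 ± 0.9 CPM in ATG7/SQSTM1 KO. TAX1BP1 and TNIP1, adaptors that work with A20, each rose by 0.38 (SE 0.032 and 0.038).

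The list of NF-kB target genes came from textbook knowledge but was chosen with earlier results of these data known. Its counts are therefore a description and not an independent test. Of 32 tested target genes (33 listed) 27 rose in ATG7 KO and 2 fell, with a median of 1.38. In ATG7/SQSTM1 KO 25 were lower than in ATG7 KO and 1 was higher, with a median of −1.02. The higher gene, CFLAR (0.17, edgeR adjusted p = 0.0497), named after its values were seen, had overlapping libraries. When libraries were scaled by relative log expression, 26 were lower and 0 higher. Against control the list split in ATG7/SQSTM1 KO, with 12 higher, 11 lower and a median of 0.02, beside 19.0% and 19.6% of all genes. TNFAIP2 went from 56.1 ± 1.9 to 219 ± 10 CPM in ATG7 KO and stood at 103 ± 5.9 CPM in ATG7/SQSTM1 KO. The complement gene C3 stood at 143 ± 2.9, 477 ± 4.7 and 195 ± 4.4 CPM in control, ATG7 KO and ATG7/SQSTM1 KO, and the cell surface proteoglycan SDC4 at 39.8 ± 1.4, 130 ± 4.7 and 61.4 ± 2.6 CPM. These 3 genes stayed above control in ATG7/SQSTM1 KO, by 0.87 for TNFAIP2, 0.44 for C3 and 0.63 for SDC4 (edgeR adjusted p = 4.08e-11, 4.11e-11 and 1.75e-10). Named after their values were seen, the chemokine CXCL1 (−2.18) and the urokinase gene PLAU (−1.61) were the targets furthest below control in ATG7/SQSTM1 KO, and the growth factor gene CSF2 (2.47) the furthest above. CXCL1 and CSF2 rest on few counts, 2 to 6 for CXCL1 in ATG7/SQSTM1 KO libraries and 9 to 17 for CSF2 in control libraries. CD40 is in both the target and the receptor list.

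**Figure D4:**
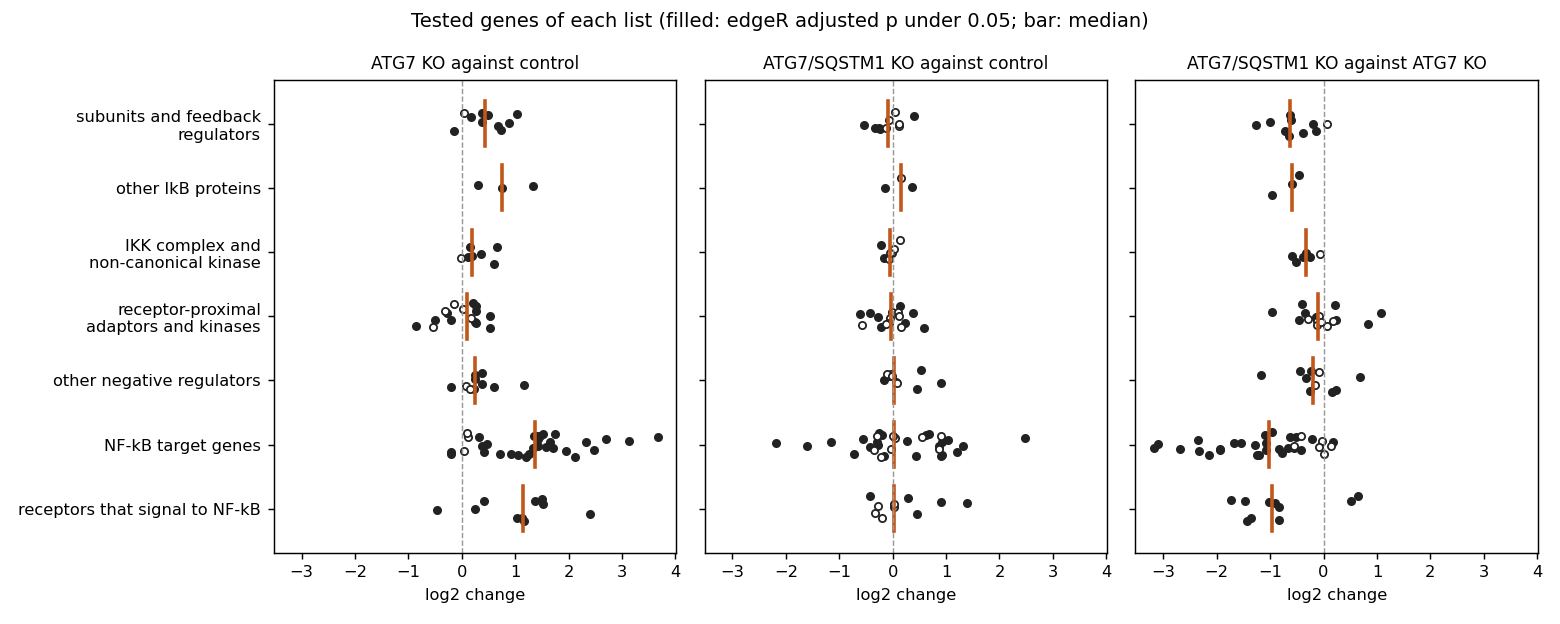
Log2 change (horizontal axis) of each tested gene of the 10 subunits and feedback regulators and of the 6 other pathway lists (rows) in the 3 comparisons; filled points passed an edgeR adjusted p of 0.05, open points did not, and bars are list medians. Target genes and receptors reach medians of 1.38 and 1.15 in the left panel, 0.02 and 0.03 in the middle panel, and −1.02 and −0.97 in the right panel.

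For each of the 10 genes the most similar profile was sought among 11603 other protein-coding genes. These reached a mean of at least 5 CPM in their highest group. The most similar profile had the smallest root mean square difference of centred log2 CPM over the 9 libraries. NFKB2 was matched most closely, by NIFK at 0.0255, NFKBIA by DLD at 0.0313 and NFKB1 by ATP6V0E1 at 0.0345. RELB was nearest to OSMR, a receptor subunit for oncostatin M, at 0.0372, with OSMR at 37.0, 57.6 and 36.1 CPM in control, ATG7 KO and ATG7/SQSTM1 KO. The other nearest genes were DYNC1LI1 for RELA (0.0381), ZFHX3 for REL (0.0402), PBDC1 for TNFAIP3 (0.0532), ARHGAP23 for BCL3 (0.0717), CEP170B for NFKBIE (0.0745) and GPAT3 for BIRC3 (0.103). None of the 10 genes was the nearest profile of another. The distances are not scaled to the size of a gene's changes. How close the nearest profile of other genes lies was not tested.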

How the data were processed

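RNA of 9 DMS273 libraries was depleted of rRNA and made into strand-specific libraries, per the labels' protocols. Per the submitters' processing notes, HISAT2 and the hg38 build were used. How reads were counted (program, gene annotation, strand) and the aligner's version were not stated in the sources used. The authors deposited raw counts, in whole numbers, for each gene. The 362598 missing cells were read as 0, since no cell holds a 0, and 1 unlabelled column holding only 0 was left out. A symbol under several IDs was read from the ID that GENCODE release 29 places on the primary assembly. IRAK4 was found by its ID.

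Counts were tested with edgeR 4.0.16 in R 4.3.3: filterByExpr by group (minimum count 10), scaling by TMM (factors 0.977 to 1.01), robust quasi-likelihood fitting of 1 mean for each of the 3 groups (6 residual degrees of freedom), and Benjamini-Hochberg adjustment over all 18847 genes, with 0.05 as the threshold. SDs are over 3 libraries. Pairs of libraries of a group differed by more than counting noise (chi-square per degree of freedom 4.47 to 7.03). The fit was tested on simulated data with known changes in 50 genes at each fold, far fewer genes than were called in the data. At 1.25-fold it recovered 21, 22 and 24 of 50 in the 3 comparisons, and at 2-fold 35, 36 and 39. False calls numbered 7, 6 and 14. Small changes were thus often missed in the simulation. The genes and lists were chosen with earlier results of these data known. Named by rule are the 10 genes, both targeted genes and the gene nearest to each of the 10. From each further list the rule takes the 3 genes with the smallest p in ATG7 KO against control. Also named, outside this rule, are genes marked as named after their values were seen and single cell type markers. Alternatives were other scalings, filters, DESeq2 1.42.0, the 6 libraries compared, a replicate block and each library left out. Detection limits of counts cover counting error only, while 95% intervals of changes come from the fit.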

Additional observations from a re-analysis of the deposited data

How the results depend on the processing

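Under other scalings, filters, tools and sets of libraries 384 of 390 results for the 10 genes kept their direction and their side of the threshold, and all 78 counts of changed genes, over all genes and over the 10, stayed within 1.5 times. The exceptions were REL, RELA and NFKB2. With library totals alone, which moved the median of all genes by −0.042 in ATG7 KO against control, the REL difference there was 0 to 2 decimals with its sign turned. The cause was not tested. Leaving out 1 library gave 8 to 9, 5 to 6 and 9 changed genes of the 10 in the 3 comparisons, and 9939 to 10182, 6361 to 6538 and 10748 to 10819 changed genes in all. Over all tested genes, libraries that share a replicate number did not deviate together (correlations from −0.06 to 0.02). A pairing that acts on few genes cannot be seen this way, and the labels do not give the origin of the replicates. With a replicate block 10564, 7137 and 11262 genes were changed, and REL in ATG7/SQSTM1 KO against control passed the threshold (0.11, edgeR adjusted p = 0.0498). The same alternatives for the other named genes and lists were added after seeing the data. For genes, 769 of 780 results were kept; 7 turned direction, all uncalled in ATG7/SQSTM1 KO against control when 1 library was left out: ZC3H12A (0.01, 0.02 and 0.07, range −0.09 to 0.07), TRAF5 (0 and 0.03, range −0.06 to 0.03), CHUK (0, range −0.05 to 0) and IKBKG (−0.03, range −0.03 to 0.07). Of 234 list counts 229 stayed within 1.5 times.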
